A study of Mus musculus with 6 samples.

Results

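The interferon-inducible GBP and IRG GTPases are represented here by 8 mouse genes, Gbp2, Gbp3, Gbp5, Gbp7, Irgm1, Irgm2, Igtp and Iigp1. They were taken by symbol, not by their values, and all 8 have a row among the 21936 genes listed for this study. RNA was sequenced from PAM212, a mouse cell line with the label keratinocyte, cultured in DMEM with 10% fetal bovine serum. In the overexpression group, 3 libraries came from PAM212 cells that had received the mouse miR-28-3p gene by lentiviral infection. In the control group, 3 libraries came from PAM212 cells whose treatment label says untreated and whose titles read NC. The sources used here do not say if the controls received an empty vector, how many clones the infected line holds or if replicate libraries come from separate cultures, so the p-values measure only the spread between these libraries. No interferon treatment is named in the labels of either group.

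Guanylate-binding proteins (GBPs) and immunity-related GTPases (IRGs) are GTP-hydrolysing proteins that cells make in response to interferon. GBPs are large GTPases that coat intracellular bacteria and the vacuoles of parasites, and they help bacterial lipopolysaccharide to reach the inflammasome. Among the IRGs, Irgm1, Irgm2 and Igtp (also called Irgm3) are regulators that sit on the cell's own membranes and hold the effector IRGs inactive there, whereas Iigp1 (also called Irga6) is an effector that disrupts the vacuole of Toxoplasma and Chlamydia. Both families are transcribed through 2 kinds of promoter element, the gamma-activated site (GAS) bound by STAT proteins and the interferon-stimulated response element (ISRE) bound by IRF proteins and their complexes.

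The overexpressed microRNA and the promoters of the genes it was set against are shown first, since they are the sequences behind the comparison. The mature microRNA is given from RefSeq (GRCm38.p6, chr16:24827908-24827929, plus strand), with capitals marking its seed, bases 2 to 8.
mmu-miR-28a-3p: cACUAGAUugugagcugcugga
The letters that pair with this seed, ATCTAGT, were found in 0 of 8 of the genes' longest annotated 3' untranslated regions, which run from 515 bases in Gbp2 to 3575 bases in Gbp7. Of 11679 tested genes with such a region of at least 50 bases, 785 (6.72%) held them. The level of the microRNA itself was not analysed here.

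RefSeq promoter windows, each from 250 bases before to 50 bases after an annotated start, matched 7 of the 8 genes, with 2 windows for Gbp3. The windows of 5 genes are printed below on the strand of the gene, 5′ to 3′. Igtp and Irgm2 are shown as near neighbours with alike promoters, Irgm1 as the gene with the smallest fold change, and Gbp2 and Gbp7 as members of the chromosome 3 cluster. Capitals mark the letters of a GAS (TTCNNNGAA, the same on both strands) or of an ISRE core (GAAA, any 2 bases and GAAA again, or the reverse complement of this, overlapping matches merged).
Igtp promoter, chr11:58199306-58199605, plus strand: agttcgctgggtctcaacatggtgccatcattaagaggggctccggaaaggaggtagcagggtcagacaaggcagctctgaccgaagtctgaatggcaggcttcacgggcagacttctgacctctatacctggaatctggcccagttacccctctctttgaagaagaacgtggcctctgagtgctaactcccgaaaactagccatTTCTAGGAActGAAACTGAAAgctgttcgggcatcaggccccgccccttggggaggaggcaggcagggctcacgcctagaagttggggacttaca
Irgm2 promoter, chr11:58214727-58215026, plus strand: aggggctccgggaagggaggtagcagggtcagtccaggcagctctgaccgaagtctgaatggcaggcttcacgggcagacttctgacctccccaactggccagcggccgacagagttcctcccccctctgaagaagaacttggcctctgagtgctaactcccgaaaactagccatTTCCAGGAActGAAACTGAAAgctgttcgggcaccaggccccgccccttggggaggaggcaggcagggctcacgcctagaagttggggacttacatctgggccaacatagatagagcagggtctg
Irgm1 promoter, chr11:48871371-48871670, minus strand: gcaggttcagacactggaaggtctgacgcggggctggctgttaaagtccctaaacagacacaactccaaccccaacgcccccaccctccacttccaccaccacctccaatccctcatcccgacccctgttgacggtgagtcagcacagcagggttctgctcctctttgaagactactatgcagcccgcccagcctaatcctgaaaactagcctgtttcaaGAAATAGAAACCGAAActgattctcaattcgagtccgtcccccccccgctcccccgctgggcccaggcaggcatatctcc
Gbp2 promoter, chr3:142620413-142620712, plus strand: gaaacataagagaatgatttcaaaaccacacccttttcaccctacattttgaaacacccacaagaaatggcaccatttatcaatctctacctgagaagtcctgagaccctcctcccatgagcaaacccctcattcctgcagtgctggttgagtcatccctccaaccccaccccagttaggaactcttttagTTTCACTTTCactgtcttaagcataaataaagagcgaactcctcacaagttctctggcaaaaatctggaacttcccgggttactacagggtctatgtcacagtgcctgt
Gbp7 promoter, chr3:142530086-142530385, plus strand: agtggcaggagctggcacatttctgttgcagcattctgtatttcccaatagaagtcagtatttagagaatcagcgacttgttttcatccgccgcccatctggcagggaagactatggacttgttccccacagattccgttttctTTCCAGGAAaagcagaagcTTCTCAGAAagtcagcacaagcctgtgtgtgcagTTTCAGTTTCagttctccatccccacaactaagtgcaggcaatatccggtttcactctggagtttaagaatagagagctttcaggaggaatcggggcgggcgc

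The ISRE core letters stood in 7 of the 8 windows, that is in a window of each of the 7 genes matched, and the second Gbp3 window held neither motif. Among all 32851 windows 3.44% held them, and among 12117 windows of genes tested here 2.99% did. GAS letters stood in 4 windows, those of Igtp, Irgm2, Gbp5 and Gbp7, compared with 8.3% of all windows and 6.77% of those of tested genes. In Igtp the GAS began 45 bases and the ISRE core 34 bases before the start. In Irgm2 they began 75 and 64 bases before it, so the pair kept the same spacing, and the windows of Igtp and Irgm2 shared an unbroken run of 61 bases. Irgm1 had 2 overlapping ISRE cores, at 30 and 24 bases before the start, and no GAS letters. A match describes letters in a window and shows no binding.

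**Figure D1:**
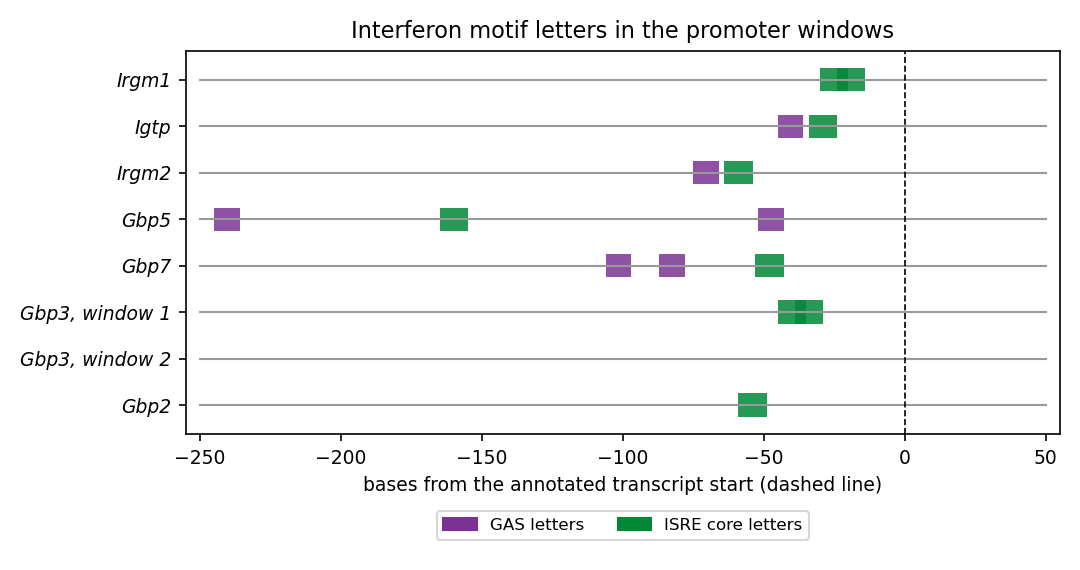
Positions of GAS letters (purple) and ISRE core letters (green) in the 8 RefSeq promoter windows of 7 genes, with distance from the annotated transcript start in bases on the x axis and the start as a dashed line. ISRE core letters stand in 7 windows, and the 2 matches farthest from the start, at -245 and -165, are both in Gbp5.

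All 8 genes were lower with miR-28-3p overexpression. The calls rest on an adjusted p under 0.05 in edgeR's quasi-likelihood test with Benjamini-Hochberg adjustment over the 11809 genes that passed a filter on low counts. This comparison had a high background, since 43.9% of all tested genes were called lower and 42.1% higher by the same rule, and being called lower alone therefore says little about these genes. Beside the size of their falls the background was lower. Of the 8, 7 were called lower by at least 4-fold, compared with 8.49% of tested genes, and 5 by at least 8-fold, compared with 4.02%. The median log2 fold change (overexpression minus control) over the 8 genes was -3.95, compared with -0.03 over all tested genes, whose 5th percentile was -2.69. Every overexpression library lay below every control library for 8 of 8 genes, as it did for 43.8% of tested genes. In edgeR 0 of the 8 were called higher, also 0 at an unadjusted p under 0.05 and 0 in DESeq2. Gbp5 and Iigp1 passed the filter only through their control counts, so they could be called in 1 direction only. Of the other 6, which would have passed on the overexpression libraries alone, 5 were lower by at least 4-fold and 3 by at least 8-fold, at a median of -3.26. Of the 10954 tested genes that would have passed in the same way, 4.21% and 1.22% fell by that much, at a median of 0.05. In bulk RNA, fewer cells that express a gene and less RNA per cell cannot be told apart.

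Counted reads per library lay between 14309898 and 16383374, so that 3 counts equal 0.188 to 0.216 CPM (counts scaled to a common library total, here the TMM-scaled one), and replicates of a group differed by more than counting noise. Gene length, averaged over counted reads, was 5091 to 5119 bases in the control libraries and 6021 to 6050 bases with overexpression. With a trend on gene length removed from the fold changes, 8 of the 8 genes were still called lower, with a median of -3.50. The design text of the series names melanocytes instead of keratinocytes. Summed CPM of 8 keratinocyte markers was 799 to 824 in controls and 1011 to 1039 with overexpression, led by Cdh1 and Perp. The members did not move together, with Sfn (1.41), Dsp (0.55), Cdh1 (0.48) and Krt14 (0.36) called higher and Perp (-0.54), Trp63 (-3.25) and Dsg3 (-3.24) called lower. Of those called lower, Trp63 and Dsg3 passed the filter only through their control counts, so they could be called in that direction only. Krt5, a defining basal keratinocyte keratin, was at 0 counts in all 6 libraries. Summed CPM of 7 melanocyte markers was 8.04 to 9.78 and 7.32 to 8.22, with Tyr at 0. Of these, Mitf (-0.52) and Pmel (-1.13) were called lower, Pmel passing the filter only through its control counts. Tyrp1 had 0 counts in each control library and 7, 18 and 15 with overexpression, and Dct 0 in each control library and 10, 8 and 13. Summed CPM of 8 leukocyte and macrophage markers was 39.8 to 40.2 in controls and 16.7 to 20.8 with overexpression, most of it Cd14 and Cd68, with Adgre1 and Tyrobp at 0 in all libraries and Ptprc at 0 in the controls. Summed CPM of 6 fibroblast markers was 43.3 to 52 and 16.2 to 17.1, mostly Pdgfra, with Lum at 0. Summed CPM of 4 endothelial markers was 0.126 to 0.317 and 0.396 to 0.758, with Kdr at 0. The leukocyte and fibroblast marker sums moved the same way as the GTPase genes, and their part in the result was not tested.

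The regulator Irgm1 (chr11:48861968-48871683, minus strand, GRCm38) had the most reads of the 8 genes and the smallest fold change. Its level was 36.2, 37.4 and 35.5 CPM in control libraries 1 to 3 and 10.6, 12.3 and 10.7 CPM in overexpression libraries 1 to 3. The groups stood far apart, at 36.4 ± 0.994 and 11.2 ± 0.947 CPM (SD, n = 3 each), and 30.8% of the control level was left. The log2 fold change was -1.70 with a standard error of 0.07 from the spread between libraries (edgeR adjusted p = 2.79e-26).

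Irgm2 (chr11:58199618-58222782, plus strand) is a second membrane regulator. It was read at 16.4, 16.2 and 16.7 CPM in the controls and at 0.721, 0.924 and 0.884 CPM with overexpression, a 19.4-fold lower level (exact 95% interval 14 to 27.6, counting error only) with a log2 fold change of -4.27 (standard error 0.11; edgeR adjusted p = 6.67e-30). The 3 control libraries lay within a narrow band, and 5.15% of their level was left with overexpression.

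Igtp (chr11:58199556-58207591, plus strand), the third regulator, was read at 23.4, 23 and 24 CPM in the controls and at 1.37, 1.19 and 1.52 CPM with overexpression. Its level was 17.3-fold lower (13.3 to 22.7), with a log2 fold change of -4.10 and a standard error of 0.10 (edgeR adjusted p = 2.6e-33, the smallest of the 8). Annotated exons of Igtp and Irgm2 overlap by 162 bases on the same strand, 8.01% of the exon bases of Igtp and 4.39% of those of Irgm2, so a small share of reads could be assigned to either.

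Iigp1 (chr18:60376027-60392634, plus strand), the effector IRG of the set, was near the floor in all libraries. It had 18, 26 and 17 counts in the controls, or 1.13, 1.71 and 1.08 CPM, and 0, 0 and 3 counts with overexpression. The ratio of the summed levels was 19.5, with a wide exact 95% counting interval of 6.36 to 97.1, and edgeR gave a log2 fold change of -4.13 (adjusted p = 2.14e-07). All 3 counts came from overexpression library 3, and the fitted value without that library was -7.31.

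Of the GBPs, Gbp2 (chr3:142620602-142638008, plus strand), which restricts Toxoplasma in mice, had the highest level per length of the 4 in the controls. It was read at 21.4, 21.5 and 24.2 CPM in the controls and at 1.66, 1.78 and 1.39 CPM with overexpression. The fall was 13.9-fold (11 to 18), with a log2 fold change of -3.79 and a standard error of 0.12 (edgeR adjusted p = 8.97e-32).

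Gbp3 (chr3:142560026-142573209, plus strand) was read at 14.2, 12.3 and 13.1 CPM in the controls and at 1.59, 2.64 and 1.7 CPM with overexpression. Overexpression library 2 was higher than the other two, but remained far below each control. The fall was 6.65-fold (5.32 to 8.4), with a log2 fold change of -2.73 and a standard error of 0.24, the widest of the 6 genes with counts in every library (edgeR adjusted p = 3.41e-22).

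Gbp7 (chr3:142530342-142550149, plus strand), linked to assembly of the phagocyte oxidase, was read at 9.17, 11 and 10.7 CPM in the controls and at 1.95, 1.85 and 1.52 CPM with overexpression. The fall was 5.83-fold (4.59 to 7.5), the smallest of the 4 GBPs, with a log2 fold change of -2.54 and a standard error of 0.14 (edgeR adjusted p = 2.66e-19). The group means were 10.3 ± 0.979 and 1.77 ± 0.226 CPM (SD, n = 3), so 17.1% of the control level was left.

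Gbp5 (chr3:142493978-142522344, plus strand), which promotes NLRP3 inflammasome assembly, had the lowest level per length of the 4 in the controls. It had 14, 17 and 27 counts in the controls, or 0.879, 1.12 and 1.71 CPM, and 2, 0 and 0 counts with overexpression. The ratio was 27.8 with an exact 95% counting interval of 7.35 to 235, and edgeR gave a log2 fold change of -4.56 (adjusted p = 1.68e-07). Both counts came from overexpression library 1, and the fitted value without that library was -7.28.

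**Figure D2:**
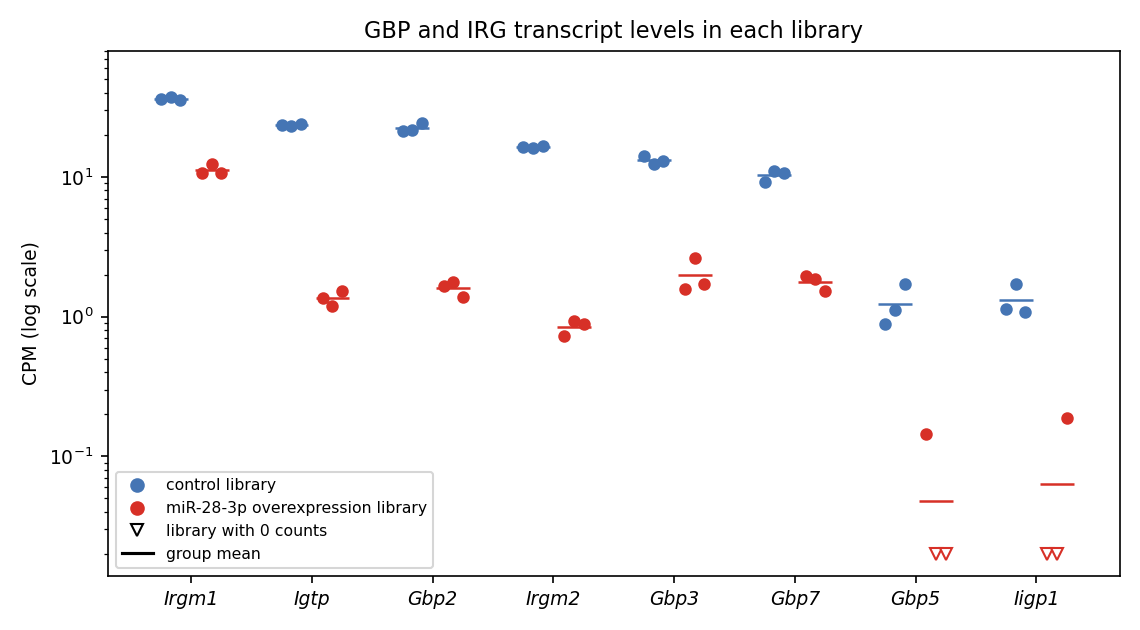
Level of each of the 8 genes in every library, in CPM on the y axis, with 1 point per library and control and miR-28-3p overexpression libraries in separate colours. For each gene the 3 overexpression points lie below the 3 control points, and the gap is smallest for Irgm1.

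Set against gene length, the order of the genes differed between the groups. On the FPKM scale (counts scaled to gene length and library total, mean ± SD, n = 3), control levels ran from Igtp at 12 ± 0.253 and Gbp2 at 9.18 ± 0.639 through Irgm1 at 6.46 ± 0.175, Irgm2 at 4.6 ± 0.067, Gbp3 at 4.17 ± 0.314 and Gbp7 at 1.89 ± 0.177. Iigp1 at 0.232 ± 0.0623 and Gbp5 at 0.193 ± 0.0666 came last, and were the only neighbours in this order whose libraries overlapped. With overexpression Irgm1 led at 1.86 ± 0.158 FPKM, above Igtp at 0.65 ± 0.0781, Gbp2 at 0.619 ± 0.0778, Gbp3 at 0.586 ± 0.171, Gbp7 at 0.305 ± 0.0393 and Irgm2 at 0.221 ± 0.028. There the libraries of Igtp and Gbp2, of Gbp2 and Gbp3, and of Iigp1 and Gbp5 overlapped.

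The summed level of the 8 genes was 123, 124 and 127 CPM in the control libraries and 18, 20.6 and 17.9 CPM with overexpression. The genes did not contribute alike to the reads left. Irgm1 made up 29.2 ± 1.11% of the sum in controls and 59.3 ± 0.469% with overexpression (SD, n = 3). The share of Igtp was 18.8% in controls and 7.28% with overexpression, that of Gbp2 17.9% and 8.53%, and that of Irgm2 13.2% and 4.47%. The shares of Gbp3, 10.6% and 10.4%, and of Gbp7, 8.25% and 9.41%, moved little.

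**Figure D3:**
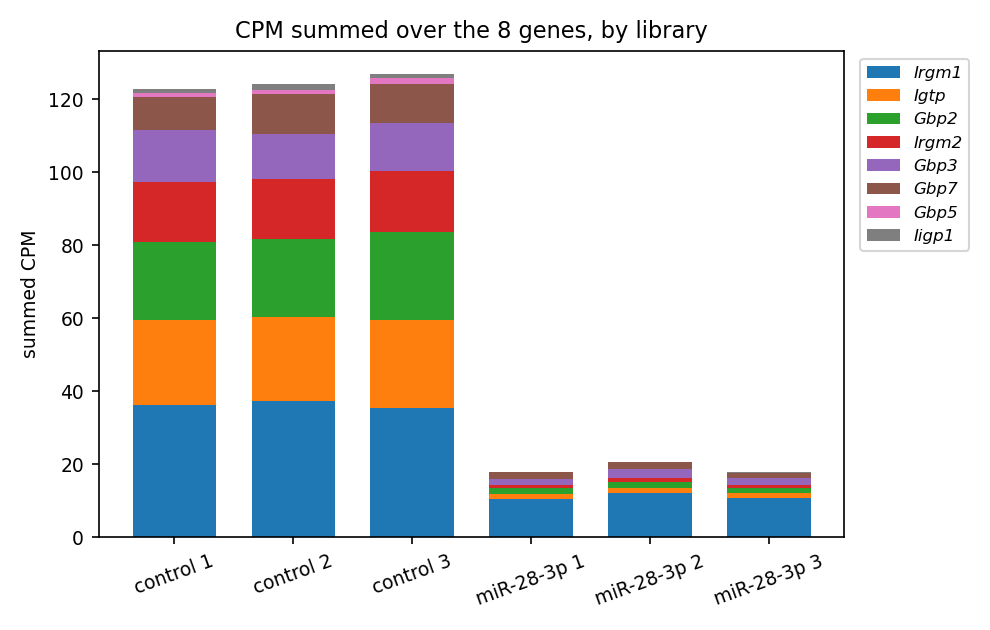
CPM summed over the 8 genes in each of the 6 libraries, as stacked bars with 1 colour per gene. The control bars reach 123 to 127 CPM and the overexpression bars 17.9 to 20.6 CPM, of which Irgm1 is the largest block.

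The 6 genes with counts in every library were compared pairwise, as the log2 ratio of their CPM within each library. Such ratios do not depend on library scaling, but they can depend on gene length. The mean gene length per counted read differed between the groups, and these genes run from 2022 bases (Igtp) to 5810 bases (Irgm1). With the length trend removed, the log2 fold change was -1.83 for Irgm1 and -3.60 for Igtp, compared with -1.70 and -4.10 before. Irgm1 thus still fell less, by a smaller margin. The ratios below carry no length correction, and their dependence on length was not tested. Of 15 pairs, 12 had ratios that did not overlap between the groups, each at an exact two-sided permutation p = 0.1, the smallest that 3 against 3 libraries allow (0.125 after Benjamini-Hochberg adjustment over the 15). The ratio of Irgm1 to Irgm2 differed by 2.59 on the log2 scale (standard error 0.09) and that of Irgm1 to Igtp by 2.41 (standard error 0.17). The pairs whose ratios overlapped were Irgm2 with Igtp, at a difference of -0.18 (standard error 0.17), Gbp3 with Gbp7, at -0.23 (standard error 0.27), and Gbp2 with Igtp, at 0.32 (standard error 0.21).

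Of 20 other listed GBP and IRG family genes, 17 have a row here and 11 were tested, of which 8 were called lower and 3 higher, beside the 43.9% and 42.1% of all tested genes. Of the 8 lower, 5 (Gbp4, Gbp6, Gbp8, Gbp10 and Tgtp2) passed the filter only through their control counts. Of the 6 relatives that would have passed on the overexpression libraries alone, 3 were lower and 3 higher, at a median of -0.96. Of these 6, Gvin1 and 9930111J21Rik2 passed the filter only through their overexpression counts, so they could be called higher only. The remaining relatives were Gbp2b (-3.41), Gbp9 (-3.51), Ifi47 (-2.08) and Irgq (0.16). Of all tested genes that would have passed on the overexpression libraries alone, 40.6% were lower and 45.4% higher. Gbp11, Gm12250 and Iigp1b were not analysed here. On chromosome 5, Gbp9 was at 60.1 ± 2.11 CPM in controls and 5.28 ± 0.487 CPM with overexpression (SD, n = 3), a log2 fold change of -3.51. Per length its control level, 12 ± 0.444 FPKM, was the highest of the tested GBPs. Gbp4 was read at 39.2, 39.9 and 40.3 CPM in the controls and at 0.721, 0.462 and 0.442 CPM with overexpression, a ratio of 74.4 (exact 95% counting interval 49.9 to 116). Gbp8 had 446 counts over the controls and 4 over the overexpression libraries, a ratio of 107 (41.4 to 394) and a fitted log2 fold change of -6.61, or -7.80 without overexpression library 3. Both ratios were above the 27.8 of Gbp5, the highest among the 8 genes, whose own interval reached 235. Gbp2b, beside Gbp2 on chromosome 3, had a log2 fold change of -3.41. Gbp10 had -4.60 and Gbp6 -4.91, the latter -7.59 without overexpression library 3, but 46.27% and 28.99% of their exon bases are shared with another annotated gene, Gm43302.

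Among the IRG relatives, the effector genes Tgtp2 and Ifi47 were lower, with log2 fold changes of -4.06 and -2.08. The value of Tgtp2 rested on 41 control counts and 2 overexpression counts, and was -6.75 without overexpression library 2. Its near-identical neighbour Tgtp1, not tested, had 35 and 1 counts, and reads could be split between these copies. Gm4951 had 11 control counts and 0 with overexpression, at least 3.51-fold lower with a floor of 3 counts over the group. The called rises with groups that did not overlap were in genes at low levels. Gvin1, which encodes a very large interferon-inducible GTPase, was at 0.192 ± 0.167 CPM in controls and 1.42 ± 0.354 CPM with overexpression (SD, n = 3), a log2 fold change of 2.82, or 3.76 without control library 3, and 9930111J21Rik2, a gene model beside the Tgtp genes on chromosome 11, was at 0.301 ± 0.143 and 2 ± 0.258 CPM, a log2 fold change of 2.71. Of the other untested relatives, 9930111J21Rik1 had 1 control count and 13 overexpression counts, Gm12185 had 11 and 2, and Irgc1 had 4 and 1. Irgq, an IRG-like gene, was at 28.7 ± 1.36 and 32.1 ± 2.4 CPM with overlapping groups, and its call at an edgeR adjusted p = 0.0434 was lost in 11 of 16 alternative settings, with adjusted p from 0.0527 to 1 in those. With upper quartile scaling its direction turned (-0.07).

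**Figure D4:**
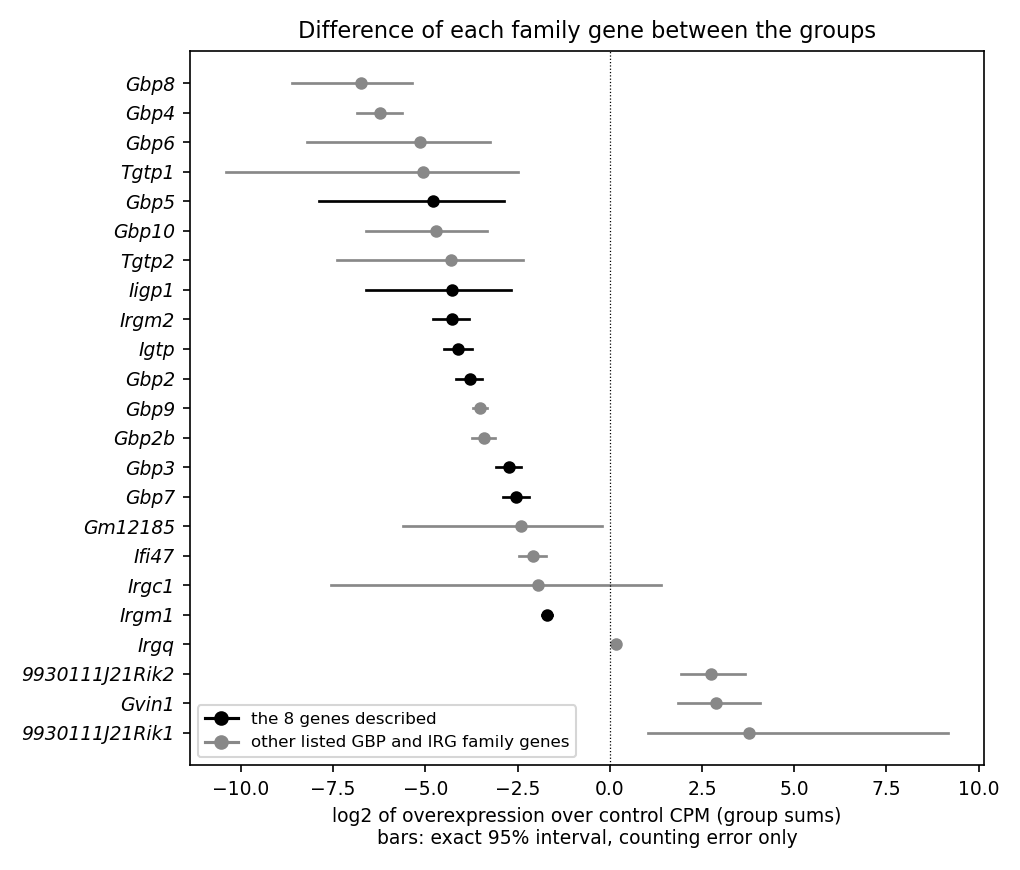
Log2 of the overexpression level over the control level for each GBP and IRG family gene with counts in both groups, from group sums of CPM, with exact 95% intervals that cover counting error only. The 8 genes described are black and the other family genes grey. Values run from Gbp8 at the top, the lowest, to 9930111J21Rik2, Gvin1 and 9930111J21Rik1 at the bottom, whose intervals lie to the right of 0.

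Upstream of these genes stand the interferons, their receptors and JAK kinases, and the STAT and IRF factors. Of 9 interferon ligand genes listed, 2 had any count, with at most 3 in a library, and none was tested. Ifng was at 0 in all 6 libraries. Ifne, named after its values were seen, had 3 counts in each control library and 0 with overexpression, at least 2.87-fold lower with a floor of 3 counts over the group, and Ifnb1 had 1 control count and 0 with overexpression. Of 9 receptor and JAK genes, 8 were called lower and 1 higher, with a median log2 fold change of -1.05. Over all tested genes 43.9% were called lower and 42.1% higher, and these shares stand beside each list that follows. Both chains of the interferon-gamma receptor were lower. Ifngr1 was at 59.9, 54.3 and 56.7 CPM in the controls and at 29.3, 29.2 and 33.1 CPM with overexpression, and Ifngr2 at 62, 58.9 and 61.5 CPM and at 29, 29.6 and 29.5 CPM. Their log2 fold changes were -0.90 and -1.05 (edgeR adjusted p = 7.81e-20 and 8.24e-24). Of the kinases that bind them, Jak2 had -1.24 and Jak1 0.69, the one called higher. Ifnar1, a chain of the type I receptor, had -0.60.

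Of 10 tested STAT, IRF and coactivator genes, 9 were called lower and 0 higher in edgeR, also 0 higher in DESeq2, with a median of -1.20, Irf7 passing the filter only through the controls. Irf1, an activator that binds the ISRE, was at 105, 105 and 110 CPM in the controls and at 21.7, 22.2 and 20.2 CPM with overexpression, a log2 fold change of -2.32 (edgeR adjusted p = 1.25e-42). Irf9 had -3.05, Irf3 -1.26 and Stat3 -0.76. Irf8 was the gene not called, at -0.17 (edgeR adjusted p = 0.054).

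Of 8 inhibitors of interferon signalling, 3 were called higher and 3 lower, at a median of 0.09, near the 42.1% and 43.9% of all tested genes. With upper quartile scaling 2 were higher and 4 lower, at a median of -0.14, a scaling under which the median of all tested genes was -0.26. The phosphatases Ptpn11 (1.23), Ptpn1 (0.46) and Ptpn2 (0.25, not called with upper quartile scaling) were the ones called higher. Those called lower were Usp18 (-4.32), which passed the filter only through its control counts, Socs3 (-1.63) and the phosphatase Ptpn6 (-1.46). Pias1 was not called (0.00, or -0.23 and called lower with upper quartile scaling). Socs1, the feedback inhibitor of JAK kinases, was at 4.26 ± 0.671 CPM in controls and 4.84 ± 0.478 CPM with overexpression (SD, n = 3) and was not called.

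The genes with which GBPs and IRGs work were counted by list, beside the same 43.9% lower and 42.1% higher of all tested genes. Of 7 tested inflammasome partners, 7 were called lower and 0 higher, also 0 higher in DESeq2, with a median of -3.24, Aim2 passing the filter only through the controls. Casp4, the mouse caspase-11 that senses lipopolysaccharide, was at 29.3, 28.3 and 26.5 CPM in the controls and at 2.52, 2.9 and 2.02 CPM with overexpression, a log2 fold change of -3.50 (edgeR adjusted p = 2.99e-33). Casp1 had -3.45, the pore-forming Gsdmd -1.88 and Casp8 -0.43.

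Of 11 genes of the ATG conjugation system, which directs IRGs and GBPs to vacuoles, 9 were called lower and 2, Atg16l1 (0.61) and Atg5 (0.18, a call lost in 9 of 16 alternative settings and turned to -0.05 with upper quartile scaling), higher, at a median of -0.74. The conjugated proteins Gabarap (-1.81), Map1lc3b (-1.56) and Gabarapl1 (-1.54) fell, and Gabarapl2 had -0.47, a call lost with the length trend removed. Of 10 genes whose enzymes make the isoprenoid donors, attach prenyl or myristoyl anchors or process prenylated proteins, 7 were called higher and 1 lower, at a median of 0.44, or 6 higher and 3 lower with upper quartile scaling. Over all tested genes 42.1% were called higher. Some GBPs carry a prenyl anchor and Iigp1 a myristoyl anchor. Zmpste24 had 1.18 and the myristoyltransferase Nmt2 0.89. Fnta, a subunit of the prenyl transferases, had -0.22, or 0.07 with the length trend removed, and Nmt1 (-0.04) and Rce1 (-0.08, or 0.40 and called higher with the length trend removed) were not called. Fdps, which makes farnesyl diphosphate and is named after its values were seen, was at 1.22 ± 0.628 CPM in controls and 12.8 ± 0.881 CPM with overexpression (SD, n = 3). Fdps is among the 7 called higher. With 8 counts in control library 1, it passed the filter only through the overexpression libraries, so it could be called higher only. Of 5 ubiquitin factors of vacuoles, 3 were lower and 2 higher, at a median of -0.63, with Sqstm1 at -1.81, Nbr1 at -0.63, Rnf213 at 0.96 and Traf6 at 0.73.

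Other interferon-induced genes were counted the same way. Of 13 tested antiviral effectors, 12 were called lower and 1, Ifit2 (0.57), higher, at a median of -3.84. Of the 12, 5 (Ifit3, Oas2, Oas3, Rsad2 and Ifi44) passed the filter only through their control counts. The tetherin gene Bst2 had -2.54, Oasl2 -4.23 and the ubiquitin-like Isg15 -3.12. Of 10 tested other interferon-gamma targets, 10 were lower and 0 higher, also 0 higher in DESeq2, at a median of -3.15, with Psmb9 and Serping1 passing the filter only through the controls. These include the peptide transporter genes Tap1 (-3.75) and Tap2 (-3.33) and the class II chaperone Cd74 (-3.60), with the proteasome gene Psmb10 at -0.95.

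**Figure D5:**
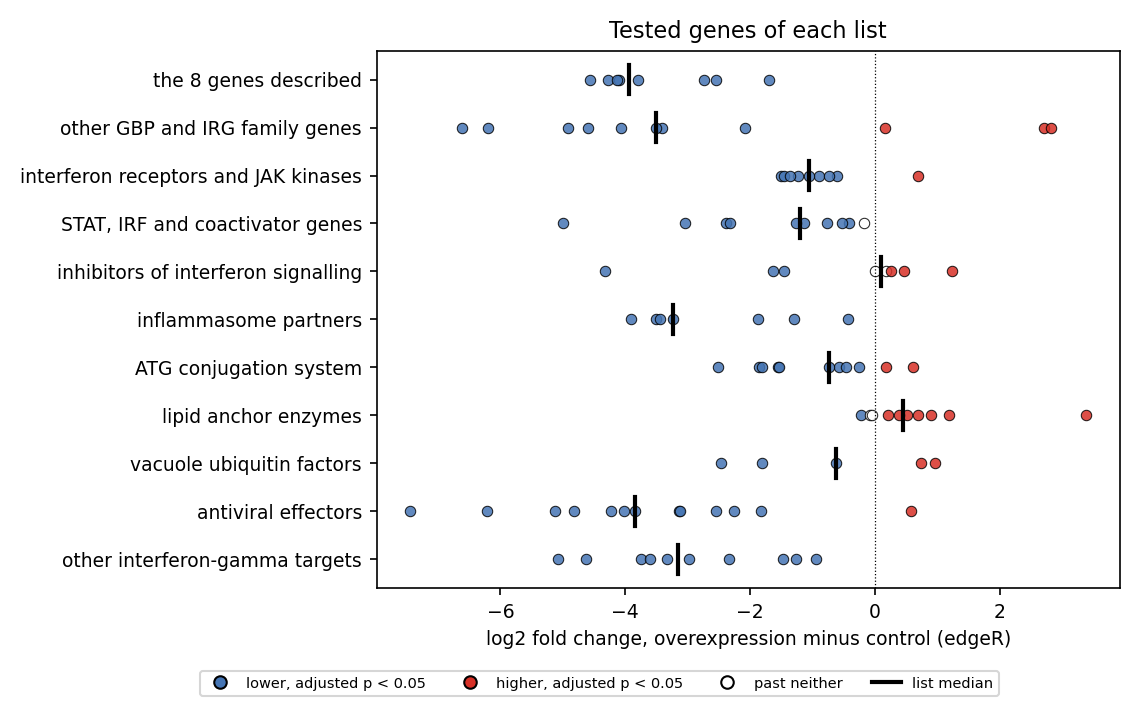
Log2 fold change (overexpression minus control, edgeR) of every tested gene in each list, 1 point per gene, with the list's median marked. The medians of the GBP and IRG genes, the inflammasome partners, the antiviral effectors and the other interferon-gamma targets lie between -3.95 and -3.15. Those of the other signalling and partner lists lie between -1.20 and 0.44. Over genes that would pass the filter on the overexpression libraries alone, medians were -3.26 for the 8 genes and -0.96 for their relatives. They were -2.56 for the inflammasome partners, -3.13 for the antiviral effectors and -2.83 for the other interferon-gamma targets. Those of the STAT, IRF and coactivator genes and of the inhibitors were -1.14 and 0.18. The median of the relatives includes Gvin1 and 9930111J21Rik2, which passed the filter only through their overexpression counts.

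The genes whose profiles were most like the mean profile of the 8 were sought among 10319 tested genes with at least 5 CPM in a group. Likeness was the root mean square difference of centred log2 CPM over the 6 libraries. A prior count of 2 was added, which shrinks the change of low genes. On that scale the mean profile was 1.45 to 1.59 in the controls and -1.55 to -1.53 with overexpression. The nearest were Spp1 (0.050), the osteopontin gene, and Bend5 (0.051), followed by the interferon-induced Ifit1 (0.059), the adaptor gene Blnk (0.063) and the glutathione transferase gene Mgst1 (0.067). Their log2 fold changes were -3.10, -3.08, -3.14, -3.05 and -3.04. With only 2 groups, likeness here is mostly an equal size of fall.

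The nearest tested genes outside the family on each side of the clusters, taken at any distance, did not share the size of the fall in most cases. Before the chromosome 3 GBP cluster, which starts at base 142493978, Rap1gds1 and Pdlim5 had log2 fold changes of 1.09 and 0.57. Rap1gds1 ends at base 139075201, far from the cluster, and Pdlim5 at base 142395696. After the cluster Kyat3 had 0.43 and Gtf2b -0.19. Beside the chromosome 5 cluster, Lrrc8b had 1.92, Lrrc8c 1.68 and Thoc2l 0.75, and Zfp951 (-0.28) was not called. Beside Igtp and Irgm2, Mrpl22 had 0.17 and Gemin5 2.01 on one side, and on the other Zfp692 (-0.06) and Zfp672 (-0.08) were not called. Beside Irgm1, Trim7, an E3 ligase gene, was lower at -2.51 and Psme2b, a copy of a proteasome activator subunit gene, at -1.49, while Zfp62 had 0.15 and Gm12184 (0.26) was not called.

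The motif letters were also set against the fold changes of all 9437 tested genes with a promoter window, of which 43.8% were called lower. Of 345 genes with ISRE core letters, 7 of them among the 8 studied, 52.5% were lower, at a median log2 fold change of -0.29. Of 778 with GAS letters, 4 of them among the 8, 46% were lower, at a median of -0.09. Of 8359 genes with neither motif 43.4% were lower, at a median of -0.01. Of 45 genes with both, 64.4% were lower at a median of -0.66, and 4 of these 45 are Igtp, Irgm2, Gbp5 and Gbp7. Each of these medians lay far above that of the 8 GTPase genes, -3.95.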

How the data were processed

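Polyadenylated RNA of 6 PAM212 libraries, 3 per group, was compared. The authors deposited raw read counts per gene and FPKM values, per the file headers, and each FPKM equals the count divided by gene length and library total. A deposited comparison table, whose groups are named only A and B, was not used. HISAT2, HTSeq, DESeq and the build mm9 stand in the submitters' processing notes, with no versions, but 21617 of 21936 genes have the coordinates of GRCm38 in GENCODE release M21, so GRCm38 is used here. How reads shared by paralogs were handled is not stated in these sources.

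Counts were tested with edgeR 4.0.16 in R 4.3.3 (filterByExpr with a minimum count of 10, TMM scaling, robust quasi-likelihood test, Benjamini-Hochberg over all tested genes, two-sided), which was tested on simulated data. CPM uses TMM-scaled totals. Standard errors come from the spread of log2 CPM between libraries. Intervals (95%) cover counting error only, since PCR reads are not independent molecules. Alternatives used DESeq2 1.42.0 and limma 3.58.1, other scalings and filters, a length correction, a replicate block, and each library left out. The labels' replicate numbers were not taken as pairs.

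The genes, lists and rules were chosen with earlier results of these data known. Named genes are the 8, their listed relatives with a count, up to 4 tested genes of each list with the highest mean CPM, Irf1, Ifngr1, Ifngr2 and Casp4, and the 5 genes nearest in profile. Flanking genes, cell type markers, genes not called, genes that passed the filter only through the controls and a few others (Fdps, Ifne and those called against their list's majority) were named after their values were seen, and 1 gene that the rule takes is not reported here. Promoters and the microRNA are from RefSeq (GRCm38.p6).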

Additional observations from a re-analysis of the deposited data

How the results depend on the processing

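Under 16 alternative settings, 126 of 126 values of the 8 genes kept their direction and stayed past the threshold. These include the values of Gbp5 and Iigp1, which could be called in 1 direction only. All settings draw on the same 6 libraries, and the share of all tested genes that kept their call was not computed. The filter on FPKM left Gbp5 untested in 2 of the limma settings, which cover 7 of the 8. The count of genes called over the whole table was 10159 and fell to 5947 when a minimum change of 1.5-fold was tested. The median log2 fold change of the 8 genes, -3.95, was -4.18 with upper quartile scaling, -3.50 with the length trend removed, and from -3.96 to -3.72 with each library left out. With limma it was -1.71 on log2(FPKM + 1), -2.66 on log2(FPKM + 0.1) and -1.55 on log2(FPKM + 1) with no filter, since a pseudocount shrinks the change of low genes. Of the other genes named, Fnta turned from -0.22 to 0.07 with the length trend removed and, with upper quartile scaling, Irgq from 0.16 to -0.07 and Atg5 from 0.18 to -0.05, and the cause was not tested. Depth limits Gbp5 and Iigp1, whose overexpression levels rest on 2 and 3 counts.

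The replicate numbers did not pair the libraries: the correlations of same-numbered libraries' deviations were -0.008, 0.036 and 0.014 over 6090 genes. With a replicate block 10116 genes were called and 8 of the 8 genes were lower, with 0 higher.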
